A study of Mus musculus with 64 samples.

Results

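The genes described here are the fragile X protein family and the partners through which it meets the cap-binding translation machinery, followed by RNA sequencing in 2 brain regions, hippocampus and frontal cortex, of mice with the p.Arg87Cys allele of Cyfip2 and of their littermates. They are the 8 rows of the expression table, of 18432 in all, whose Ensembl gene IDs map to Fmr1, Fxr1, Fxr2, Eif4e, Eif4ebp1, Eif4ebp2, Eif4g1 and Nufip1 in the GENCODE M21 annotation. The rule that picks these rows uses names and no measured value. The members and the related gene lists below were, however, chosen with earlier results of these data known. Each of the 8 is a protein-coding gene and each passed the filter on low values in every comparison. The 64 libraries fall into 16 groups of 4, one for each combination of region, age and genotype. Mice were taken 1, 7, 14 or 28 weeks after birth (postnatal week, PWK). The genotypes are wild type (WT) and knock-in (KI), which are littermates on the C57BL/6N strain. Per the study's methods the knock-in mice are heterozygous, so that 1 normal Cyfip2 allele remains and the changed allele is present in all cell types throughout life. Each age and genotype has 4 mice, and cortex and hippocampus of both hemispheres came from the same mice, so the regions are not independent of each other, whereas each age has mice of its own. Sex is not used here.

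FMRP, the protein of Fmr1, is an RNA-binding protein that holds back the translation of many neuronal mRNAs, and its loss causes fragile X syndrome. Fxr1 and Fxr2 encode its paralogs. The CYFIP proteins are partners of FMRP, and CYFIP1 also binds eIF4E, the protein that recognises the 5' cap of mRNAs. eIF4E is joined to the ribosome through the scaffold eIF4G1, and the 4E-BP proteins of Eif4ebp1 and Eif4ebp2 compete with eIF4G1 for the same surface of eIF4E until they are phosphorylated by mTORC1. In brain, 4E-BP2 is the known main form. Nufip1 encodes a nuclear FMRP-interacting RNA-binding protein that also takes part in the assembly of box C/D small nucleolar ribonucleoproteins. What follows concerns RNA levels, and neither protein nor phosphorylation was measured.

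The shared surface of eIF4E is reached through a short motif, a tyrosine, 4 residues of any kind, a leucine and a hydrophobic residue. The coding bases of this motif in the competing partners are shown because it is through this motif that these members reach eIF4E, and 1 of them, Eif4ebp2, carries most of the genotype calls below. The bases are from the coding strand of GRCm38, and the capitals mark the 7 codons of the motif.
Eif4ebp1, chr8:27273337-27273357, plus strand, exon 2 of 3, from codon 53 of 117: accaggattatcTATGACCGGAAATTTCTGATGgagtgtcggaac
Eif4ebp2, chr10:61435069-61435089, minus strand, exon 2 of 3, from codon 54 of 120: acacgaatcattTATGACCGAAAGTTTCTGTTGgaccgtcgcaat
Eif4g1, chr16:20681221-20681241, plus strand, exon 12 of 32, from codon 616 of 1600: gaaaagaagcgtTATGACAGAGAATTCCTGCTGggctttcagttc
In Eif4ebp1, 18 of the 21 motif bases equal those of Eif4ebp2, and in Eif4g1 16 of 21 do. The pattern occurs 2 times in the Eif4g1 protein, and the occurrence most like that of Eif4ebp2 is the one printed.

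Fxr2 and Eif4ebp2 are the 2 members with a genotype call, so the 250 bases upstream of their RefSeq start sites (GRCm38.p6) are given in the same way. RefSeq windows matched 7 of the 8 members. Capitals mark matches, on either strand, to any of 7 motifs searched. Of these, GGGCGG (GC box), TGACG (cAMP response element half-site), CCGGAAG (ETS) and the NRF1 letters (GCGCA, any base, GCGC) occurred in these windows.
Eif4ebp2, chr10:61452670-61452919, minus strand: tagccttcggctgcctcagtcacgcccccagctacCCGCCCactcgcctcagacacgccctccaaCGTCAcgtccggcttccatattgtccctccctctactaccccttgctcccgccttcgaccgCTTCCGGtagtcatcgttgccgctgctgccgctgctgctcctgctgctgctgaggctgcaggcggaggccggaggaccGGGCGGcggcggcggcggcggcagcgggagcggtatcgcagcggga
Fxr2, chr11:69632721-69632970, plus strand: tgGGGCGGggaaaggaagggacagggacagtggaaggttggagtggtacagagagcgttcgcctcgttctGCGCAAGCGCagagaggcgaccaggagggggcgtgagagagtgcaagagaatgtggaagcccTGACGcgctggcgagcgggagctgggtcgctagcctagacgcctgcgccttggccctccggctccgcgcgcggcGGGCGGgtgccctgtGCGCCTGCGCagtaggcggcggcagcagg
The Eif4ebp2 window holds 2 GC boxes, 1 cAMP response element half-site and 1 ETS match. The Fxr2 window holds 2 NRF1 matches, 2 GC boxes and 1 cAMP response element half-site. Of 32851 upstream windows of this length, 32.7% held a GC box, 17.8% the half-site, 6.91% the ETS letters and 3.74% the NRF1 letters. The motif CACGTG (E-box, in 6.02% of windows) was found upstream of Fmr1, Eif4g1 and 1 start site of Eif4e, CCAAT (33.8%) upstream of Eif4e and Nufip1, and TATAAA (12.4%) upstream of none of the 7. A match is a string of letters and not a shown site.

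Values are normalized counts, which the authors scaled between libraries, and the values of a library sum to between 29225576 and 32601227. The reads behind a value are not known, so the spread between the 4 libraries of a group is the error used. Differences were tested on log2(value + 1) with limma across all genes of the table, a gene was called when its Benjamini-Hochberg adjusted p over all genes was under 0.05, and n = 4 against 4 throughout. The labelled regions carried their markers. The sum of 4 hippocampal genes was 18195 to 25898 in hippocampus and 4027 to 8777 in cortex, and the sum of 4 frontal cortex genes was 10151 to 18220.1 in cortex and 2162 to 6582 in hippocampus. Some libraries stood apart from their groups. In KI hippocampus at PWK 14, replicate 1 had a Gfap level of 131431 (the astrocyte filament gene) against 40059 to 47169 in the other KI libraries and 7502 to 9231 in WT. Its summed level of 5 astrocyte genes, 192957, was the highest of all 64 libraries. The highest sum of 6 microglia genes, 19612, was also found in KI hippocampus at PWK 14. Choroid plexus genes in hippocampus at PWK 14 ranged in summed level from 1900 to 98664 in KI and from 2046 to 104578 in WT. At PWK 28 they ranged from 60334 to 103512 in KI and from 36655 to 124504 in WT. Wide ranges were also seen in hippocampus at PWK 1 in KI (259 to 33465) and at PWK 7 in WT (1437 to 96829.7). Those of WT at PWK 1 (11013 to 39550.2) and KI at PWK 7 (40999 to 99774) were narrower. In WT cortex at PWK 28 they ranged from 326 to 21413, and in KI cortex at PWK 14 the sum of 4 striatal genes ranged from 1733 to 6014.

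Eif4ebp2, which encodes 4E-BP2, was lower in knock-in mice at PWK 14 and 28 in both regions. No library of one genotype reached into the range of the other in any of these 4 comparisons. How many of all genes separate in this way was not counted, so the separation cannot be read as particular to Eif4ebp2. In hippocampus at PWK 14 its normalized counts were 1898, 1812, 1802 and 1835 in KI and 2528, 2368, 2492 and 2564 in WT. All KI values lay below all WT values, with a log2 difference of -0.44 (SE 0.05, limma adjusted p = 0.0013), a KI level 0.738 times that of WT. At PWK 28 the hippocampal values were 1639.8, 1794, 1651 and 1831 in KI and 2084, 2295, 2270 and 2141 in WT. The difference was -0.35 (SE 0.06, limma adjusted p = 0.0022), again without overlap.

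Eif4ebp2 in cortex at PWK 28 stood at 1424, 1811, 1432 and 1588 in KI and at 2185, 2117, 1992 and 2142 in WT. The KI libraries spread more widely than the WT ones, but the highest of them remained under the lowest WT value, and the difference was -0.44 (SE 0.08, limma adjusted p = 0.00427). In cortex at PWK 14 the values were 1746, 1738, 1892 and 1901 in KI and 2157, 2217, 2212 and 2060 in WT. This smaller difference, -0.25 (SE 0.06, limma adjusted p = 0.0303), was the least secure of the 4. It missed the threshold with total-sum scaling (adjusted p = 0.0566) and without KI replicate 2 or WT replicate 1, 2 or 3 (limma adjusted p = 0.0858 to 0.0928, log2 -0.25 to -0.23). The other 3 calls remained when any single library was left out. Without the Gfap-rich KI hippocampal library of PWK 14, the difference there was -0.45 (limma adjusted p = 0.000779).

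No difference of Eif4ebp2 was called at the younger ages. On the log2 scale it was -0.03 (cortex) and 0.07 (hippocampus) at PWK 1, then 0.05 (cortex) and -0.05 (hippocampus) at PWK 7, and the genotypes overlapped in each. The change of the KI effect between PWK 7 and 14 was tested directly, in a fit that shares the PWK 14 libraries with the comparisons above. It was -0.30 (SE 0.07, limma adjusted p = 0.0199) in cortex and -0.39 (SE 0.07, limma adjusted p = 0.00189) in hippocampus. In cortex it missed the threshold narrowly without KI replicate 3 of PWK 7 (-0.28, limma adjusted p = 0.0503). Between PWK 14 and 28 the effect moved by -0.19 (95% interval -0.40 to 0.02) in cortex and by 0.09 (-0.06 to 0.24) in hippocampus, and neither was called. No difference between the regions was called either, with a hippocampus minus cortex difference of the KI effect of -0.19 (-0.34 to -0.04, limma adjusted p = 0.162) at PWK 14 and 0.09 (-0.12 to 0.30) at PWK 28. Eif4ebp2 was also set against its binding partner Eif4e in the same library (mean ± SD, n = 4). The count ratio in hippocampus at PWK 14 was 0.813 ± 0.0271 in WT and 0.519 ± 0.0812 in KI, without overlap. In cortex at PWK 28 it was 0.703 ± 0.0547 and 0.519 ± 0.0911, and the highest KI ratio, 0.65, exceeded the lowest WT ratio, 0.628. In hippocampus at PWK 28 it was 0.689 ± 0.118 and 0.605 ± 0.0637, with overlap. In cortex at PWK 14 it was 0.68 ± 0.0608 and 0.587 ± 0.0736, again with overlap. Against Eif4g1, with which 4E-BP2 competes, the same ratio in hippocampus at PWK 14 was 0.257 ± 0.00134 in WT and 0.181 ± 0.0102 in KI. In hippocampus at PWK 28 it was 0.246 ± 0.0112 and 0.194 ± 0.011. In cortex it was 0.241 ± 0.0223 and 0.172 ± 0.0258 at PWK 28, and 0.239 ± 0.0108 and 0.216 ± 0.0229 at PWK 14. The genotypes overlapped in cortex at PWK 14, with 0.229 to 0.251 in WT and 0.183 to 0.236 in KI.

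Beside the members, 81 of 18314 genes tested in all 4 late comparisons were called lower in KI in each of them, 0.442%, and 137 were called higher, 0.748%. Eif4ebp2 is 1 of the 81. Many genes differ at these ages. The share of all genes called in either direction was 5.18% in cortex and 15.6% in hippocampus at PWK 14, and 22.2% and 15.8% at PWK 28, against 0.00546% and 0.0109% at PWK 1 and 0.00545% and 0.0218% at PWK 7. The 8 members gave 1 call in cortex and 2 in hippocampus at PWK 14, 1 in each region at PWK 28 and 0 at PWK 1 and 7, where 1 member test had an unadjusted p under 0.05. Read against those shares, the count of members called is not particular to the family. In tissue of this kind a lower RNA level in each cell and fewer cells of the type that holds it cannot be told apart. The summed level of 7 neuronal genes was 183682 to 226256 in KI hippocampus at PWK 14 and 197409.7 to 208370.4 in WT, and in cortex at PWK 28 it was 267819.7 to 283890.4 in KI and 225136 to 249694 in WT. The astrocyte sum in hippocampus at PWK 14 was 73319.8 to 192957 in KI and 41003 to 45257 in WT, with 2 of its 5 genes called higher, and 1 of the 7 neuronal genes was called lower there. The astrocyte sum in cortex at PWK 28 was 31930.1 to 40313 in KI and 30823 to 36559 in WT, and 4 of 4 blood genes were called lower. The astrocyte sum in hippocampus at PWK 28 was 71271 to 82983 in KI and 42631 to 44272 in WT, with 2 of 5 genes called higher, and the microglia sum 9664 to 10581 and 7574 to 8698, with 4 of 6 called higher. In cortex at PWK 14 the sum of 3 endothelial genes was 2110.4 to 2494 in KI and 3158 to 3440 in WT, with 2 of 3 called lower. No marker of these neuronal, astrocyte or microglia lists was at 0 in any library. The part of these cell-type markers in the Eif4ebp2 difference was not tested.

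**Figure D1:**
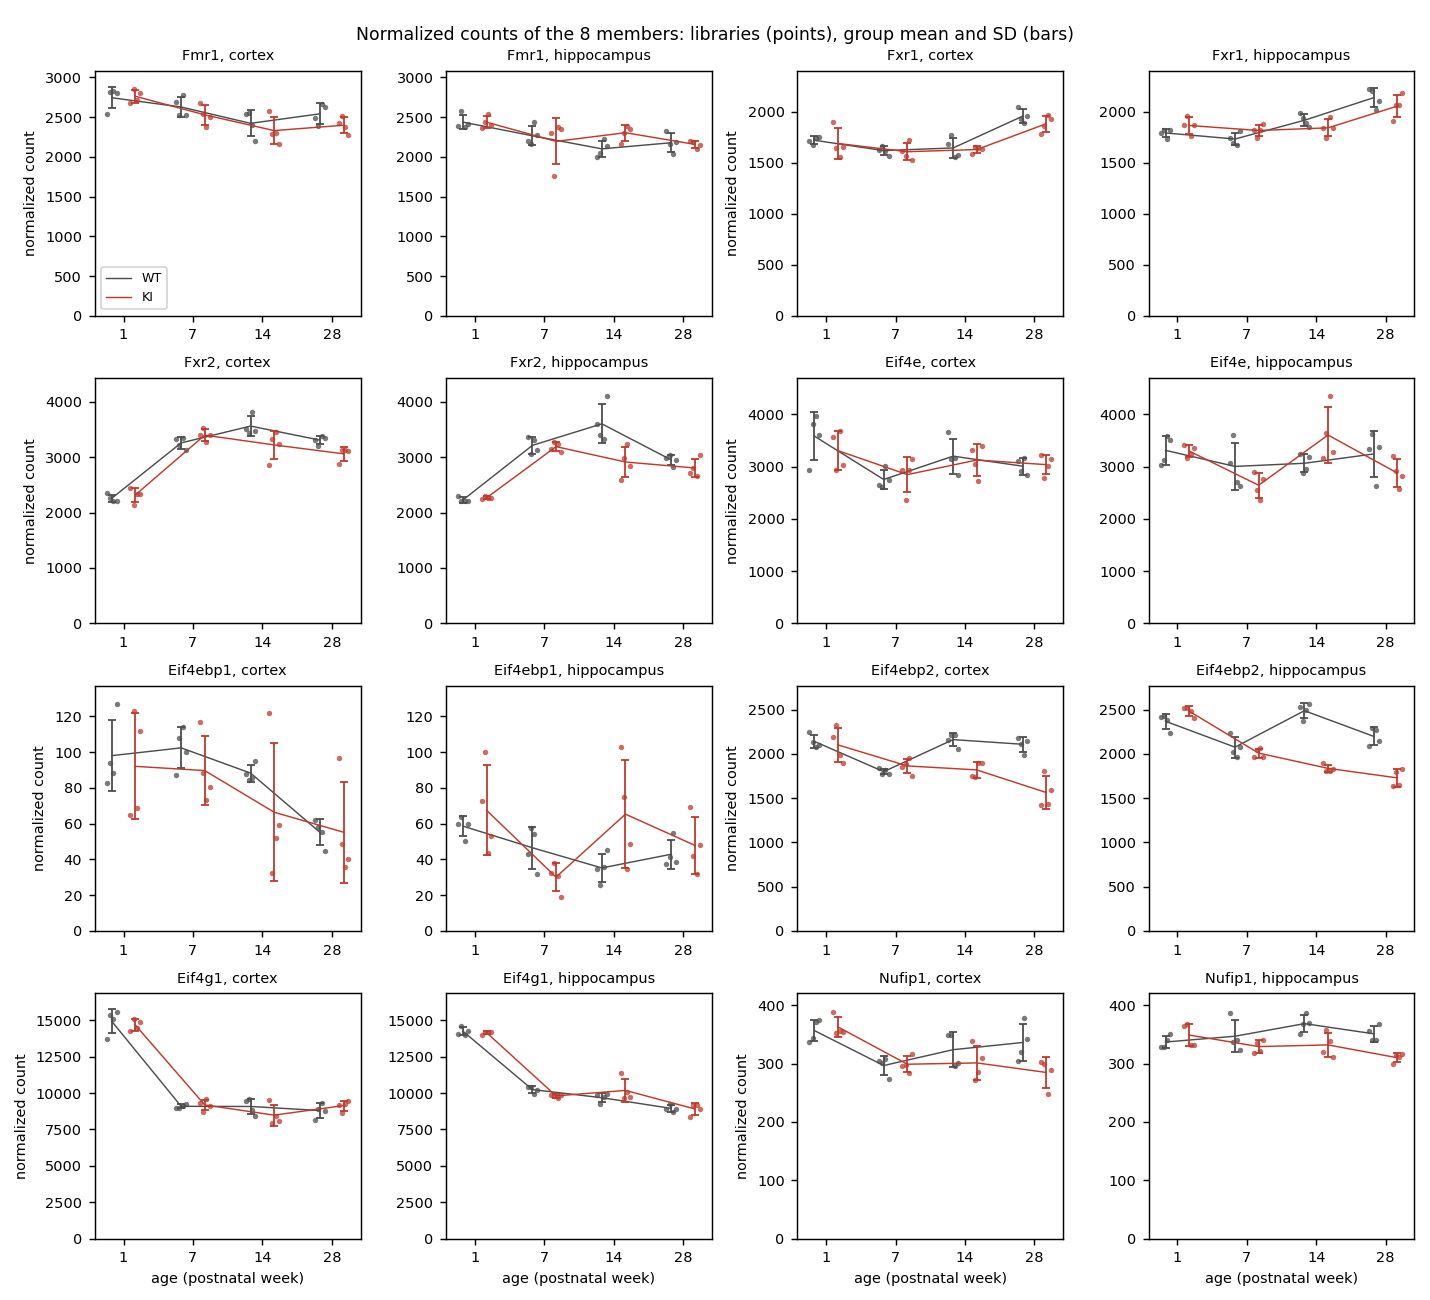
Normalized counts (vertical axes, from 0) of the 8 members by age in postnatal weeks, in cortex and hippocampus. Points are libraries, grey for WT and red for KI, and bars are the group mean and SD of 4 libraries. The Eif4ebp2 panels separate from PWK 14 on, with KI libraries at 1802 to 1898 and WT libraries at 2368 to 2564 in hippocampus.

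Fxr2 gave the other genotype call. This paralog of FMRP binds RNA and shares many of its protein partners. In hippocampus at PWK 14 its counts were 2584, 2992, 3240.2 and 2832 in KI and 3593, 3393, 3319.6 and 4096 in WT. The groups did not overlap, but the highest KI and the lowest WT library were close, and the difference was -0.31 (SE 0.09, limma adjusted p = 0.044). The call was lost when any library other than KI replicate 3 was left out (limma adjusted p = 0.0528 to 0.11, log2 -0.34 to -0.24). Without the Gfap-rich KI replicate 1, which also had the lowest Fxr2 count, it was -0.25 (limma adjusted p = 0.0631). Fxr2 in cortex at PWK 28 was 2875 to 3134 in KI and 3200 to 3375 in WT, without overlap, at -0.11 (SE 0.05, limma adjusted p = 0.145). In the other late comparisons it was -0.15 in cortex at PWK 14 and -0.07 in hippocampus at PWK 28, neither called. The change of the KI effect on Fxr2 from PWK 7 to 14 was -0.30 in hippocampus (SE 0.10, limma adjusted p = 0.0739) and -0.21 in cortex (limma adjusted p = 0.168).

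Fmr1 and Fxr1 were not called in any genotype comparison. For Fmr1, the log2 differences ran from -0.08 in cortex at PWK 28 to 0.13 in hippocampus at PWK 14, where KI libraries were at 2162, 2305, 2391 and 2355 and WT libraries at 1993, 2053, 2220.2 and 2135 (SE 0.06, 95% interval 0.00 to 0.26, limma adjusted p = 0.152). The KI values were mostly the higher ones, with overlap at 1 KI and 1 WT library. For Fxr1, the differences ran from -0.06 to 0.07. Its intervals at PWK 14 were -0.14 to 0.12 in cortex and -0.18 to 0.07 in hippocampus, so a change of the size seen for Eif4ebp2 lies outside them. The Fxr2 to Fmr1 count ratio in hippocampus at PWK 14 was 1.72 ± 0.184 (SD, n = 4) in WT and 1.26 ± 0.0776 in KI, and 1.36 ± 0.0547 and 1.30 ± 0.0769 at PWK 28.

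Eif4e, the cap-binding protein, was not called between genotypes either. Its largest difference was 0.22 (SE 0.10, limma adjusted p = 0.152) in hippocampus at PWK 14, with KI libraries at 3154, 3641, 4342 and 3273 and WT libraries at 3245, 2873, 2957 and 3175. The KI libraries spread from among the WT values to well above them. At PWK 28 in hippocampus the difference had the other sign, -0.17, with KI at 2566 to 3203 and WT at 2622 to 3629. Without WT replicate 3, the lowest of its group at 2622, that difference was -0.27 and was called (limma adjusted p = 0.0405). Eif4g1, the scaffold gene, differed by -0.10 to 0.07 between genotypes, none called. In hippocampus at PWK 7 its KI libraries (9644 to 9897) all lay under the WT ones (9954 to 10407), and the difference was -0.06 (SE 0.04, limma adjusted p = 0.855).

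Nufip1 was lower in every KI library than in any WT library at PWK 28 in both regions, without a call in either. The counts in cortex were 303, 299.8, 247 and 289 in KI and 305, 319, 378 and 342 in WT, a difference of -0.24 (SE 0.11, limma adjusted p = 0.144). In hippocampus they were 299, 314, 310.3 and 316 in KI and 355, 341, 339.5 and 368 in WT, at -0.18 (SE 0.07, limma adjusted p = 0.133). With all 64 libraries in 1 fit, which shares 1 estimate of the spread, the cortical difference was called (limma adjusted p = 0.0065). At PWK 14 the differences were -0.10 in cortex and -0.15 in hippocampus, with overlap of the genotypes and without a call. Of all genes, 22.2% in cortex and 15.8% in hippocampus were called at PWK 28. The share of all genes whose genotypes separated without overlap was not counted. The separation of Nufip1 at PWK 28, and those of Eif4ebp2, Fxr2 and Eif4g1 above, can therefore not be read as particular to these members.

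Eif4ebp1, the second 4E-BP gene, had the lowest counts and the widest relative spread of the members, and no genotype difference was called. At PWK 14 it went opposite ways in the regions. Cortical KI libraries were at 122, 32.4, 52.0 and 59.3 and WT at 87.9, 84.7, 85.5 and 95.2, so that 3 KI libraries were below every WT library and 1 above, for a difference of -0.57 (SE 0.32, limma adjusted p = 0.348). Hippocampal KI libraries were at 103, 75.2, 34.8 and 48.4 and WT at 34.4, 25.9, 35.6 and 45.1, for 0.78 (SE 0.34, limma adjusted p = 0.148), which was called with all 64 libraries in 1 fit (limma adjusted p = 0.0346). The difference between regions in the KI effect was 1.35 (SE 0.50, 95% interval 0.30 to 2.40, limma adjusted p = 0.158).

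In each KI group of PWK 14 and 28, the library with the highest Eif4ebp1 count was also the one with the most Gfap. It was replicate 1 in each of these KI groups. The same coincidence was seen in WT hippocampus at PWK 14 (45.1 with Gfap 9231) and PWK 28 (55 with 9894). It was also seen in WT cortex at PWK 28 (62.1 with 4062). In WT cortex at PWK 14 the highest Eif4ebp1 count, 95.2, had a Gfap of 2041 where another library had 2433. The coincidence is thus not particular to knock-in libraries. Cortex and hippocampus came from the same mice, and the labels do not tie a cortex to its hippocampus. The groups of the 2 regions may therefore share a mouse here and are not separate observations. The order of the other libraries differed: in hippocampus at PWK 14, KI replicate 2 had the next highest Eif4ebp1 count, 75.2, and the lowest Gfap of its group, 40059. In cortex at PWK 14, KI replicate 1 had 12404 Gfap counts against 4322 to 5221 in the other KI libraries, and its Eif4ebp1 count of 122 was the highest of its group. Without it, the cortical difference at PWK 14 was -0.91 and was called (limma adjusted p = 0.0343), and the region difference was 1.69 and was called (limma adjusted p = 0.0368). Without KI replicate 1 in hippocampus the difference there fell to 0.53 (limma adjusted p = 0.26). At PWK 28 the highest KI counts, 96.7 in cortex and 69.3 in hippocampus, again came from the libraries with the highest Gfap of their groups, 14031 and 44711. Over the 64 libraries, after subtraction of the 16 group means, Pearson's r between Eif4ebp1 and Gfap was 0.55, given as a description of libraries that share tissue and scaling. The same measure was -0.41 for Fxr2, 0.39 for Eif4g1, -0.16 for Eif4ebp2 and between -0.12 and 0.09 for the other members. The part of astrocytes in these values was not tested.

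**Figure D2:**
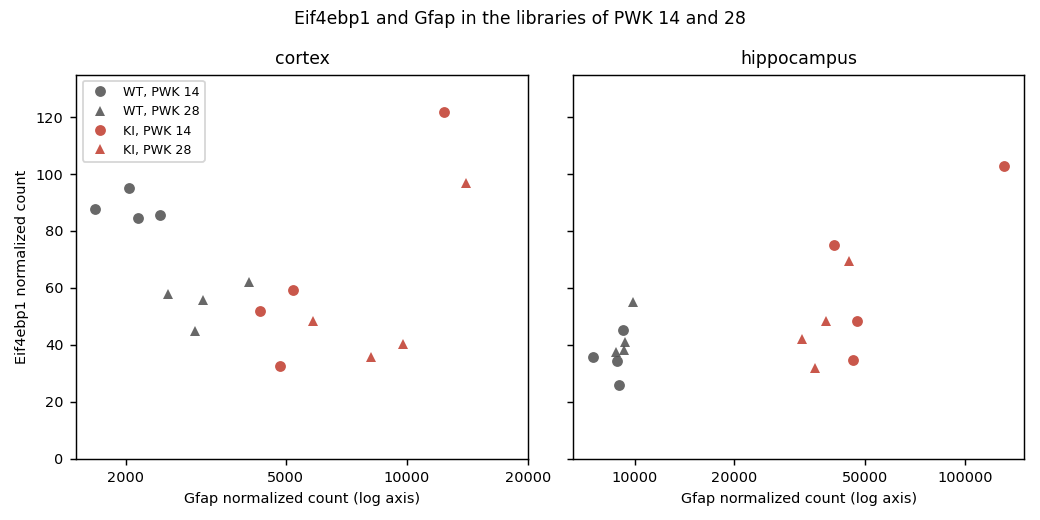
Eif4ebp1 normalized counts (vertical axis, from 0) against Gfap normalized counts (log axis) in each library of PWK 14 (circles) and PWK 28 (triangles), WT in grey and KI in red. In cortex the KI libraries with 122 and 96.7 Eif4ebp1 counts are those with the most Gfap, 12404 and 14031, and the hippocampal library with 103 has 131431.

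**Figure D3:**
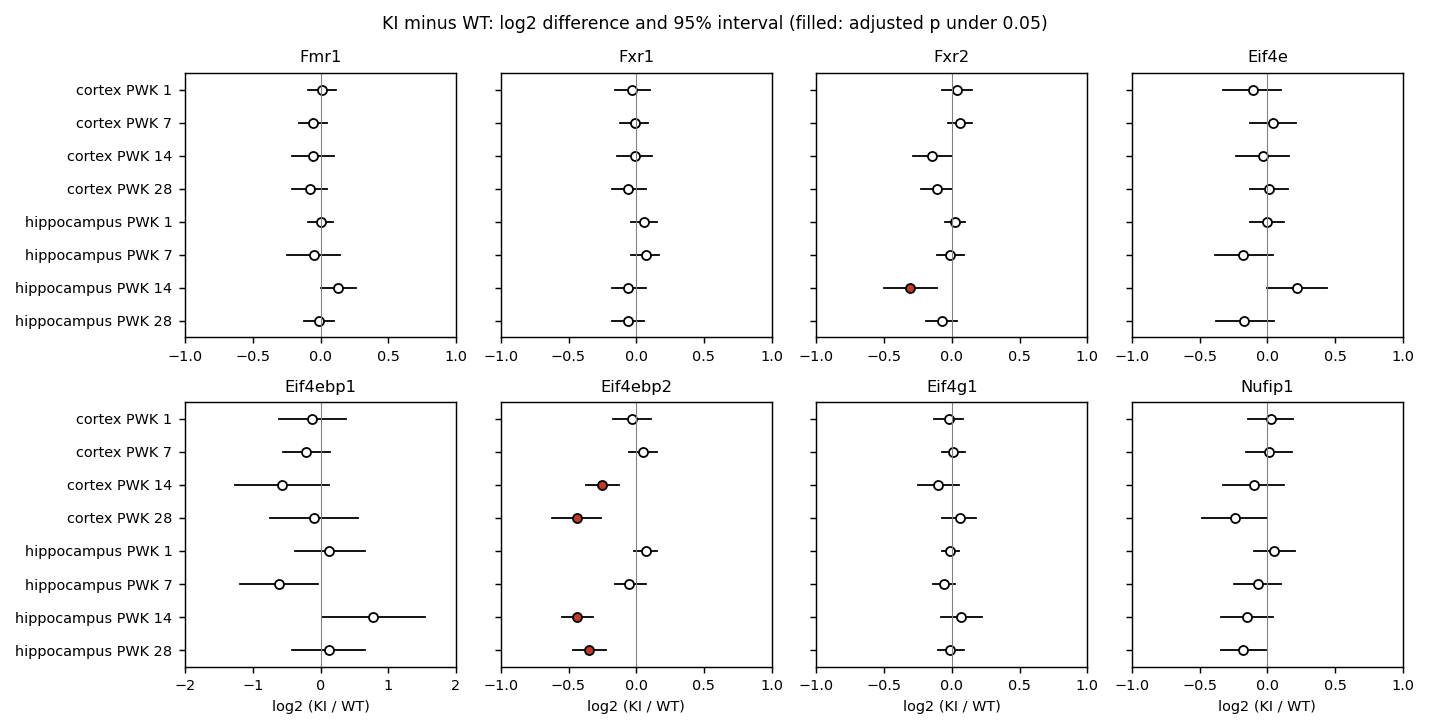
KI minus WT log2 differences with 95% intervals for each member in the 8 combinations of region and age, with filled points for adjusted p under 0.05. The 4 filled Eif4ebp2 points, from -0.44 to -0.25, are all at PWK 14 and 28, and the only other filled point is Fxr2 in hippocampus at PWK 14. The Eif4ebp1 axis is wider than the others.

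Between PWK 1 and PWK 7, the period of synapse formation and myelination, the WT family shifted in opposite directions. The scaffold gene Eif4g1 fell from 14936 ± 831 (SD, n = 4) to 9088 ± 137 in cortex and from 14246 ± 281 to 10237 ± 214 in hippocampus, log2 differences of -0.72 (SE 0.05, limma adjusted p = 5.25e-08) and -0.48 (SE 0.03, limma adjusted p = 2.33e-07). Fxr2 rose from 2257 ± 67.7 to 3256 ± 101 in cortex and from 2228 ± 51.5 to 3212 ± 149 in hippocampus, by 0.53 in each (SE 0.04, limma adjusted p = 4.01e-07 and 1.03e-06). No library of one age reached those of the other for either gene. Eif4ebp2 was lower at PWK 7 in both regions, by log2 differences of -0.25 in cortex (SE 0.04, limma adjusted p = 0.000249) and -0.19 in hippocampus (SE 0.05, limma adjusted p = 0.00594).

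Nufip1 and Eif4e were called over this period in cortex, where Nufip1 fell from 357 ± 19.0 to 296 ± 15.5 (-0.27, SE 0.08, limma adjusted p = 0.00998) and Eif4e from 3583 ± 455 to 2752 ± 186 (-0.37, SE 0.09, limma adjusted p = 0.00215), the latter with overlap of the ages. In hippocampus the Eif4e difference was -0.15 without a call (hippocampus minus cortex 0.23, limma adjusted p = 0.288), and -0.24 with a call without WT replicate 2 of PWK 7 (limma adjusted p = 0.0179). Fmr1 differed by -0.11 there, and by -0.14 with a call without WT replicate 3 of PWK 7 (limma adjusted p = 0.02) and -0.16 with a call under total-sum scaling (limma adjusted p = 0.0169). In all, 1 member rose and 4 fell in cortex, where 65.3% of all genes were called (32.5% higher, 32.7% lower), and 1 rose and 2 fell in hippocampus, with 61.3% of genes called (30.9% higher, 30.4% lower). These counts do not set the members apart from other genes. The regions differed by test in the size of the change for Eif4g1 (hippocampus minus cortex 0.24, SE 0.05, limma adjusted p = 0.00342) and for Nufip1 (0.31, SE 0.10, limma adjusted p = 0.0387), a test that called 21.3% of genes. The Nufip1 difference was not called when any 1 of 8 libraries was left out (limma adjusted p = 0.0523 to 0.0857): WT cortex replicates 3 and 4 and hippocampus replicates 1, 2 and 3 of PWK 1, and cortex replicates 2 and 4 and hippocampus replicate 1 of PWK 7. Age cannot be told apart from the day of collection or sequencing.

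In adult WT mice fewer members were called. Eif4ebp2 rose again from PWK 7 to PWK 14, by 0.26 in both regions (cortex SE 0.04, limma adjusted p = 0.00569, with libraries at 1769.8 to 1837 and then 2060 to 2217; hippocampus SE 0.05, limma adjusted p = 0.0296, with 1965 to 2238 and then 2368 to 2564). The ages did not overlap in either region. In hippocampus the call was lost without any 1 of 7 of the 8 libraries, all except WT replicate 1 of PWK 7 (limma adjusted p = 0.0515 to 0.0957). The shares of all genes called were 5.32% in cortex and 1.99% in hippocampus. In knock-in mice the corresponding group means went from 1864 to 1819 in cortex and from 2009.6 to 1837 in hippocampus. The difference between these changes is the change of the KI effect tested above. Eif4e in cortex differed by 0.21 over this interval without a call, and by 0.27 with one when WT replicate 4 of PWK 14 was left out (limma adjusted p = 0.041).

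From PWK 14 to 28, Fxr1 rose in WT cortex from 1646 ± 98.5 to 1957 ± 68.3 (0.25, SE 0.05, limma adjusted p = 0.0136) and Eif4ebp1 fell there from 88.3 ± 4.79 to 55.2 ± 7.30 (-0.68, SE 0.15, limma adjusted p = 0.0134), where 12% of genes were called. The Eif4ebp1 change was not called with all 64 libraries in 1 fit (limma adjusted p = 0.122). In WT hippocampus, with 8.11% of genes called, Fxr2 fell from 3601 ± 349.9 to 2949 ± 95.7 (-0.28, SE 0.06, limma adjusted p = 0.0226) and Eif4ebp2 from 2488 ± 85.3 to 2198 ± 102 (-0.18, SE 0.05, limma adjusted p = 0.0388). The Fxr2 call was lost without WT replicate 1 of PWK 14 or replicate 1, 3 or 4 of PWK 28 (log2 -0.29 to -0.26, limma adjusted p = 0.0563 to 0.0656). The Eif4ebp2 call was lost without replicate 1 or 4 of PWK 14 or replicate 1, 3 or 4 of PWK 28 (log2 -0.20 to -0.15, limma adjusted p = 0.0525 to 0.112), and under total-sum scaling (limma adjusted p = 0.0643) and median-ratio scaling (limma adjusted p = 0.0503). Fxr1 differed in hippocampus by 0.16 over this interval without a call, and passed the threshold under 4 other settings and without WT replicate 3 of PWK 28 (0.18, limma adjusted p = 0.0487).

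Fmr1 was lower in hippocampus than in cortex at each age, by -0.17, -0.21, -0.20 and -0.22 at PWK 1, 7, 14 and 28 (SE 0.05 to 0.06, limma adjusted p = 0.0166, 0.00541, 0.0191 and 0.00576). The groups overlapped at PWK 1 and 14, and those 2 calls were lost under total-sum scaling (limma adjusted p = 0.204 and 0.0603). They were also lost without 1 library, WT hippocampus replicate 3 at PWK 1 (limma adjusted p = 0.0512) and WT cortex or hippocampus replicate 1 or 2 at PWK 14 (limma adjusted p = 0.0509 to 0.0641). Eif4ebp1 was lower in hippocampus by -0.72, -1.15 and -1.33 at PWK 1, 7 and 14 (limma adjusted p = 0.00541, 0.000698 and 0.000137), without overlap, and by -0.36 without a call at PWK 28. Its counts at PWK 14 were 84.7 to 95.2 in cortex and 25.9 to 45.1 in hippocampus. At PWK 1 this difference was not called with all 64 libraries in 1 fit (limma adjusted p = 0.0555).

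Eif4ebp2 was higher in hippocampus, by 0.15, 0.20 and 0.20 at PWK 1, 7 and 14 (limma adjusted p = 0.0251, 0.00478 and 0.00576) and by 0.06 without a call at PWK 28. The PWK 1 call was lost without any 1 of 6 libraries, WT cortex replicates 2, 3 and 4 and WT hippocampus replicates 1, 2 and 3 (limma adjusted p = 0.0517 to 0.0692). Fxr1 was higher in hippocampus at PWK 14 (0.22, SE 0.05, limma adjusted p = 0.00762) and PWK 28 (0.13, SE 0.05, limma adjusted p = 0.0491), the latter not called without any 1 of 6 of the 8 libraries, all except cortex replicate 1 and hippocampus replicate 3 (limma adjusted p = 0.0764 to 0.133). Fxr2 was lower in hippocampus at PWK 28 (-0.17, SE 0.04, limma adjusted p = 0.00585) and was not called at the other ages. Under total-sum scaling Fxr1 was also called higher in hippocampus at PWK 1 (0.16, limma adjusted p = 0.0133) and PWK 7 (0.14, limma adjusted p = 0.0328), and Eif4g1 at PWK 14 (0.14, limma adjusted p = 0.0467). At PWK 7 Eif4g1 (0.17, limma adjusted p = 0.00118) and Nufip1 (0.22, limma adjusted p = 0.0472) were higher in hippocampus, and the Nufip1 call was lost without any 1 of 7 of the 8 libraries, all except hippocampus replicate 4 (limma adjusted p = 0.0627 to 0.139). Eif4e was not called between regions at any age, but was called without 1 library of PWK 1 (-0.20 without WT cortex replicate 1, limma adjusted p = 0.0286) and of PWK 28 (0.20 without WT hippocampus replicate 3, limma adjusted p = 0.0157), with opposite signs. Eif4g1 at PWK 1 was likewise called without WT cortex replicate 1 (-0.11, limma adjusted p = 0.0262). These tests treat the regions as separate samples although they come from the same mice, since the labels do not tie a cortex to its hippocampus. Of 32 member tests 15 were called, while 34.7%, 40.8%, 34.6% and 37.8% of all genes were called at the 4 ages.

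**Figure D4:**
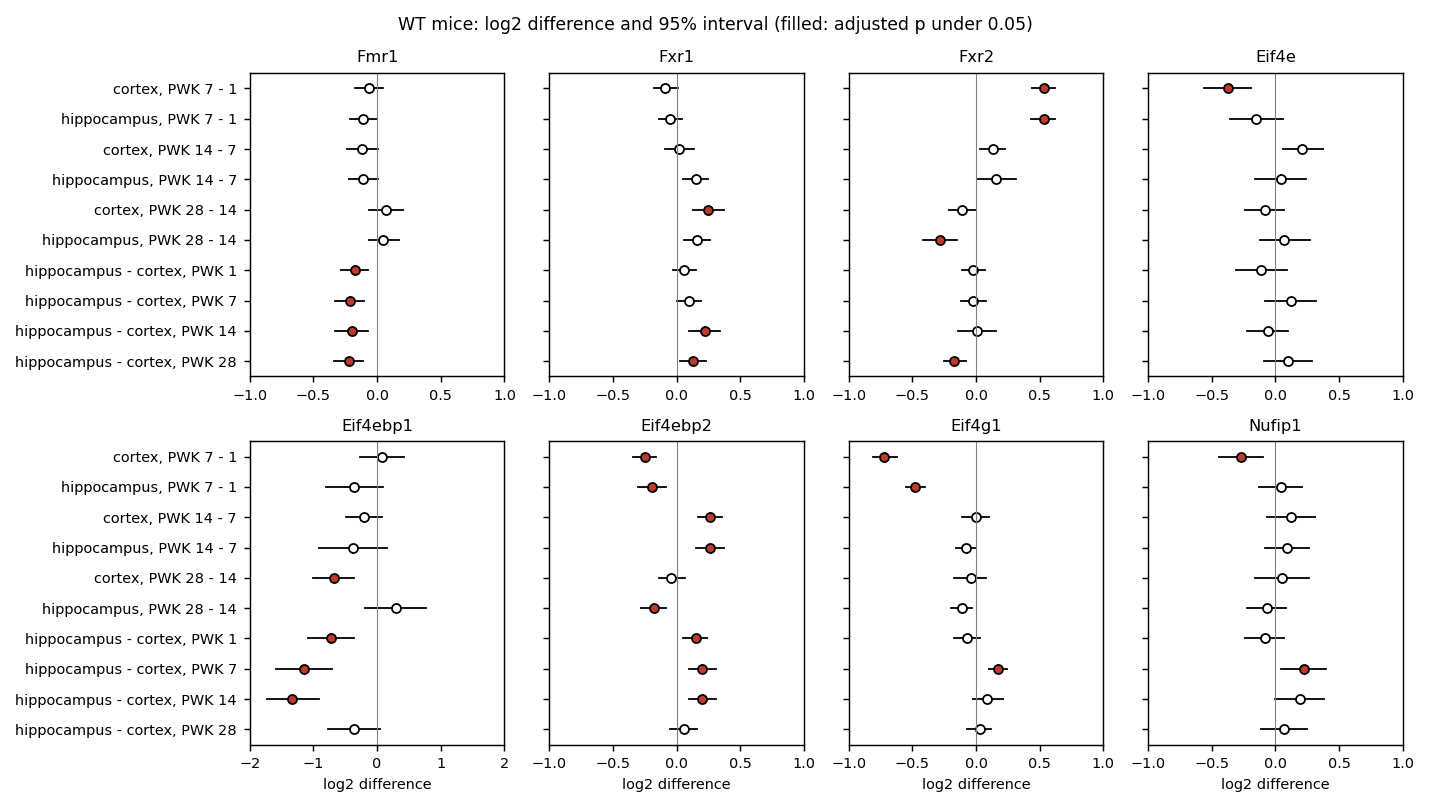
Log2 differences with 95% intervals for each member in WT mice between successive ages in each region and between hippocampus and cortex at each age, with filled points for adjusted p under 0.05. Fxr2 lies at 0.53 and Eif4g1 at -0.72 and -0.48 between PWK 1 and 7, and Fmr1 lies between -0.22 and -0.17 in all 4 regional comparisons. The Eif4ebp1 axis is wider than the others.

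No difference of the KI effect between regions was called in the 32 member tests, against 0%, 0.00543%, 2.85% and 4.57% of all genes called at PWK 1, 7, 14 and 28. By limma, 2 of those 32 had an unadjusted p under 0.05, and 1 was called with sample quality weights or with all 64 libraries in 1 fit. Of the members, Eif4ebp2 alone was called for the change of the KI effect from PWK 7 to 14, in both regions, where 3.18% of genes in cortex and 10.3% in hippocampus were called. In hippocampus Eif4ebp1 missed it at 1.40 (SE 0.44, limma adjusted p = 0.056) and was called without KI replicate 3 or 4 of PWK 14 or WT replicate 4 of PWK 7 (1.5 to 1.66, limma adjusted p = 0.0207 to 0.047). It was also called with all 64 libraries in 1 fit (limma adjusted p = 0.0144) and with sample quality weights (1.33, limma adjusted p = 0.0332). Fxr2 was called there without KI replicate 3 of PWK 14 (-0.35, limma adjusted p = 0.0344), under total-sum scaling (-0.32, limma adjusted p = 0.0229) and with all 64 libraries (-0.30, limma adjusted p = 0.00434), and Eif4e with all 64 (0.40, limma adjusted p = 0.0428). From PWK 14 to 28 no gene of the table was called in either region (0% and 0%), and 2 member tests had an unadjusted p under 0.05.

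Levels of different genes can be set against each other only per length. Per kilobase of the principal transcript, the order in WT cortex at PWK 28 was Eif4g1 at 1560.3 ± 86.2 normalized counts (SD, n = 4), Fxr2 at 1121 ± 25.7, Fxr1 at 796 ± 27.8, Fmr1 at 605 ± 31.3, Eif4e at 602 ± 32.3, Eif4ebp2 at 365 ± 14.3, Nufip1 at 84.5 ± 8.03 and Eif4ebp1 at 27.6 ± 3.66. Fmr1 and Eif4e did not differ beyond their spread, and the other neighbours did. The order depends on the length taken. Per kilobase of all exons together, Eif4e (501 ± 26.9) and Eif4ebp2 (365 ± 14.3) stood above Fxr1 (299 ± 10.4) and Fmr1 (283 ± 14.6). Under either length Eif4g1 and Fxr2 led and Nufip1 and Eif4ebp1 came last, so 4E-BP2 RNA exceeded 4E-BP1 RNA in this tissue by the 2 measures alike.

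The members varied by different amounts. From the lowest to the highest of the 64 libraries, Fxr1 spanned 1.45-fold, Nufip1 1.58-fold, Fmr1 1.62-fold, Eif4ebp2 1.80-fold, Eif4e 1.85-fold, Fxr2 1.91-fold, Eif4g1 1.96-fold and Eif4ebp1 6.67-fold. The median coefficient of variation within a group was 3.39% for Eif4g1, 3.64% for Fxr2, 3.8% for Eif4ebp2, 9.40% for Eif4e and 23.9% for Eif4ebp1. Among pairs of members over the 64 libraries, on the log2 scale, Fxr2 and Eif4g1 ran most opposite (Pearson's r = -0.86), and Eif4ebp2 with Nufip1 (0.64) and Fmr1 with Eif4ebp1 (0.60) ran most alike. These values describe libraries of 16 groups that differ in age and region. After subtraction of the group means the same pairs had r of -0.38, 0.04 and 0.02.

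The genes most like each member over the 64 libraries were, for Fmr1, Fzd3 (r = 0.86), for Fxr1, Hnrnpc (0.80), for Fxr2, Phyhip, Zbtb7a and Fbxl16 (0.94 each), for Eif4e, Hbegf and Snx3 (0.61 each), for Eif4ebp1, Lrrc75a, Zc3h8 and Gipc1 (0.73 each), for Eif4ebp2, P3h3 (0.85), for Eif4g1, Crmp1 (0.98), and for Nufip1, Cdh24 (0.72). They were chosen out of all genes with a mean of at least 100, so the coefficients are descriptions. After subtraction of the group means the nearest genes were others, such as Micu3 for Fmr1 (0.76), Disp2 for Eif4g1 (0.79), Itga10 for Eif4ebp2 (0.66) and Mthfd2 for Eif4ebp1 (0.64).

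Among 16 further genes of cap binding and the eIF4F complex, KI differences were called for some at PWK 14 or 28. Calls in this and the other related lists were not checked under other settings or with libraries left out. At PWK 28 in cortex, Pabpc1, the poly(A)-binding protein that bridges to eIF4G, was higher (0.28, SE 0.05, limma adjusted p = 0.00549), as was the scaffold paralog Eif4g3 (0.18, SE 0.05, limma adjusted p = 0.0186). Mknk2, a kinase that phosphorylates eIF4E, was lower (-0.36, SE 0.09, limma adjusted p = 0.0153), as was Eif4e3, an eIF4E paralog (-0.32, SE 0.08, limma adjusted p = 0.0199). That made 2 higher and 2 lower of 16, against 12.2% and 10% of all genes. In hippocampus at PWK 14, Pabpc1 alone was called, higher by 0.34 (SE 0.08, limma adjusted p = 0.0245), where 7.64% of all genes were higher and 7.95% lower. At PWK 28 there, Pabpc1 was higher (0.16, limma adjusted p = 0.0481), and Eif4e3 (-0.34, limma adjusted p = 0.0197) and Paip2, an inhibitor of the poly(A)-binding protein (-0.22, limma adjusted p = 0.00851), were lower. Of all genes, 8.92% were higher and 6.91% lower in that comparison. No gene of the list was called in cortex at PWK 14, where 5.18% of all genes were. The median of the list was between -0.06 and 0.00 in the 4 late comparisons, where that of all genes was between -0.003 and 0.006.

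Of 12 genes of the mTORC1 pathway, which leads to the phosphorylation of the 4E-BPs, 1 was called in each late comparison except cortex at PWK 14, where none was. The share called was 1 of 12 in each, against 22.2% of all genes in cortex at PWK 28 and 15.6% and 15.8% in hippocampus at PWK 14 and 28. Rptor, the subunit that recruits the substrates, was higher in cortex at PWK 28 (0.28, SE 0.08, limma adjusted p = 0.0272). Rheb, the activator of mTORC1, was higher in hippocampus at PWK 14 (0.50, SE 0.14, limma adjusted p = 0.0373). Tsc2, part of the complex that inhibits Rheb, was lower in hippocampus at PWK 28 (-0.27, SE 0.05, limma adjusted p = 0.00558).

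Of 18 genes of FMRP partners and RNA granules, 1 was higher and 2 lower in cortex at PWK 28, 1 lower in hippocampus at PWK 14 and 2 lower there at PWK 28. Of all genes, 12.2% were higher and 10% lower in the first of these comparisons, and 7.95% and 6.91% were lower in the others. In cortex at PWK 28, Cyfip2 itself was lower at -0.44 (SE 0.09, limma adjusted p = 0.0058), with libraries at 21597, 30055, 26765 and 24490.4 in KI and 34022, 35187, 35279 and 34418 in WT. Top3b, which encodes a topoisomerase that works with the FMRP complex, was also lower (-0.33, limma adjusted p = 0.00971), and G3bp2, a stress granule gene, was higher (0.19, limma adjusted p = 0.0231). At PWK 14 in cortex Cyfip2 was at -0.33 (SE 0.09, limma adjusted p = 0.0539), and in the other 6 comparisons it was between -0.20 and 0.11, none called. The table sums the normal and the changed allele, so it does not check the genotype labels. Cyfip1, the other CYFIP gene, was not called in any of the 8 comparisons, with differences from -0.13 to 0.15. In hippocampus Mov10, an RNA helicase, was lower at PWK 14 (-0.32, limma adjusted p = 0.0293), and Dicer1 and Purb were lower at PWK 28 (-0.14 each, limma adjusted p = 0.0427 and 0.043).

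Of 16 mRNAs well known as FMRP targets, 4 fell in cortex at PWK 14, where 2.7% of all genes were called lower and 2.48% higher. Camk2a, a kinase of the synapse, was at -0.46 (SE 0.09, limma adjusted p = 0.0213) and Shank3, a postsynaptic scaffold, at -0.35 (SE 0.06, limma adjusted p = 0.0131). In cortex at PWK 28, 2 were lower and 1 higher, against 10% and 12.2% of all genes. Camk2a was at -0.72 (SE 0.12, limma adjusted p = 0.00203), and Map1b, a microtubule protein, was higher (0.49, SE 0.09, limma adjusted p = 0.0035). In hippocampus at PWK 14, 3 were lower and 1 higher, against 7.95% and 7.64% of all genes. They included the glutamate receptor Grm5 (-0.41, limma adjusted p = 0.011), the potassium channel Kcnd2 (-0.38, limma adjusted p = 0.0125) and, higher, Rgs4, a regulator of G protein signalling (1.43, SE 0.20, limma adjusted p = 0.00263). At PWK 28, 2 were higher and 2 lower, against 8.92% and 6.91%. Rgs4 (0.95, limma adjusted p = 0.000126) and Dlgap3 (0.36, limma adjusted p = 0.00112) were the higher ones. The median of the list was -0.18, -0.13, -0.21 and -0.05 in cortex at PWK 14 and 28 and hippocampus at PWK 14 and 28, with that of all genes between -0.003 and 0.006.

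Of 10 genes of box C/D ribonucleoprotein assembly, in which Nufip1 acts, Pih1d1, a subunit of the assembly chaperone, was higher at PWK 28 in cortex (0.56, SE 0.11, limma adjusted p = 0.0057) and hippocampus (0.29, limma adjusted p = 0.0327). Of all genes, 12.2% were higher in the former and 8.92% in the latter. In hippocampus at PWK 14 the core proteins went apart, Nop58 higher (0.32, limma adjusted p = 0.0222) and Nop56 lower (-0.31, limma adjusted p = 0.0223), where 7.64% of all genes were higher and 7.95% lower. No other gene of the list was called at PWK 14 or 28. No gene of these 5 lists was called at PWK 1 or 7 in KI against WT, where 1 to 4 genes of the whole table were.

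**Figure D5:**
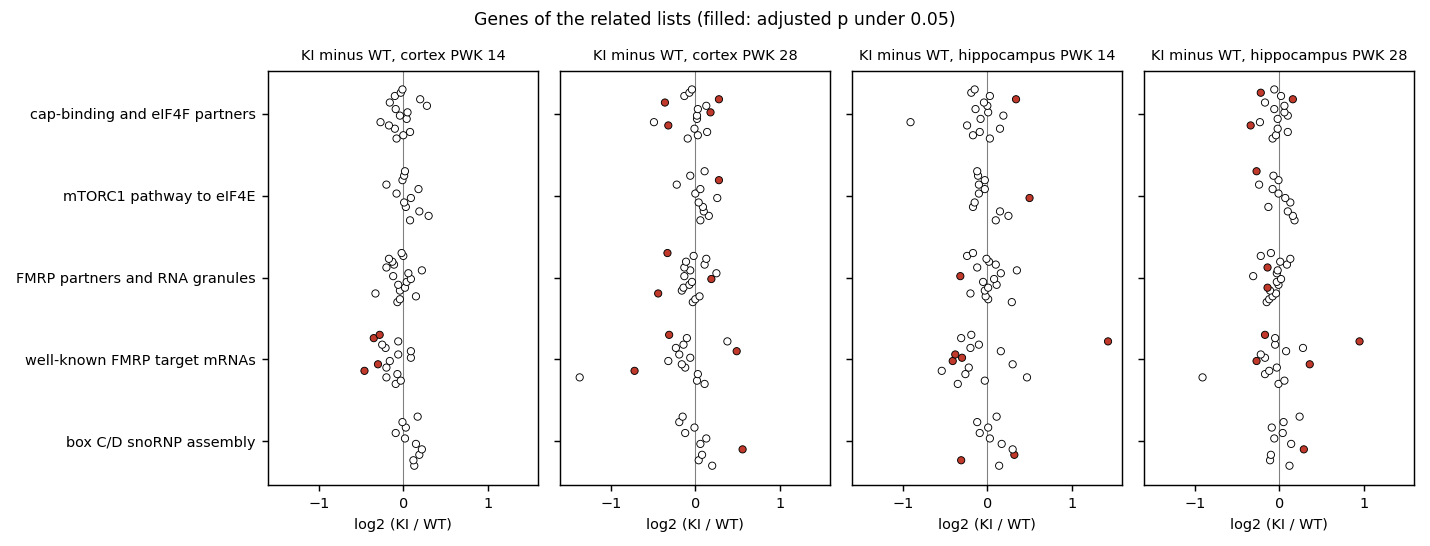
KI minus WT log2 differences of the genes in 5 related lists (16, 12, 18, 16 and 10 genes) at PWK 14 and 28 in cortex and hippocampus, each point a gene, filled for adjusted p under 0.05. The filled points reach from -0.72 (Camk2a, cortex at PWK 28) to 1.43 (Rgs4, hippocampus at PWK 14), and the list medians lie between -0.21 (FMRP targets, hippocampus at PWK 14) and 0.12 (box C/D assembly, cortex at PWK 14).

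In WT mice between PWK 1 and 7, box C/D assembly genes were lower at PWK 7, 7 of 10 in each region, with 1 higher in hippocampus, such as Nop58 in cortex (-0.95, limma adjusted p = 4.39e-07) and Pih1d1 in hippocampus (-0.73, limma adjusted p = 3.3e-06). The list median was -0.41 in cortex and -0.28 in hippocampus. Of all genes, 32.7% were lower at PWK 7 in cortex and 30.4% in hippocampus, and 32.5% and 30.9% were higher, with a median of 0.012 and 0.013. Of the cap-binding list, 8 fell and 3 rose in cortex and 7 fell and 4 rose in hippocampus. Pabpc1 (-1.05 and -0.96, limma adjusted p = 7.88e-10 and 8.11e-09) and the noncanonical scaffold gene Eif4g2 (-1.13 and -0.92, limma adjusted p = 3.09e-09 and 6.85e-09) changed most, as Eif4g1 did among the members. Cyfip2 rose by 0.98 and 1.00 (limma adjusted p = 1.04e-08 and 3.08e-09), from 18112 to 35623 in cortex and from 15205 to 30519.9 in hippocampus.

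Sharing of sequence with other genes was small. No run of 31 bases of one member's transcripts occurred in another member. Of the runs of Eif4e, 8.68% occur in other genes, mainly the pseudogene Gm7327, and of Eif4ebp1 6.60%, so that their counts are less certain than those of Eif4ebp2 (0.09%) and Fxr2 (0.05%). Fxr1 (chr3:34019943-34070322, plus strand) overlaps Dnajc19 and Gm43667 on the other strand, both rows of the table. The genes lie at chrX:68678541-68717963 (Fmr1), chr11:69632990-69653297 (Fxr2), chr3:138526179-138559696 (Eif4e), chr8:27260329-27276674 (Eif4ebp1), chr10:61428491-61452661 (Eif4ebp2, minus strand), chr16:20668313-20692884 (Eif4g1) and chr14:76110891-76137379 (Nufip1) in GRCm38, all but Eif4ebp2 on the plus strand, and their Ensembl IDs are ENSMUSG00000000838, ENSMUSG00000018765, ENSMUSG00000028156, ENSMUSG00000031490, ENSMUSG00000020091, ENSMUSG00000045983 and ENSMUSG00000022009 in that order, with ENSMUSG00000027680 for Fxr1.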

How the data were processed

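Frontal cortex and hippocampus of WT and Cyfip2 p.Arg87Cys knock-in littermates were profiled by bulk RNA sequencing with a stranded Illumina TruSeq kit, named as an mRNA kit in the labels and as a total RNA kit in the methods. The authors estimated transcript abundance with Salmon on GRCm38 and normalized gene counts with DESeq2, and the submitters' processing notes give Salmon 0.11.2, R 3.6.0 and DESeq2 1.19.11. The deposited table holds these normalized counts, a signal that is not whole: 14.9 to 42.6% of low values lay within 0.1 of a whole multiple of the smallest step, so reads could not be recovered and depth is unknown. Scaling by the authors hides differences in total RNA.

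Gene symbols came from GENCODE M21 (18420 of 18432 IDs matched). Values were analysed as log2(value + 1) with limma 3.58.1 (limma-trend, two-sided moderated test) in R 4.3.3, for genes with a mean of at least 1 in the libraries compared. Only those libraries entered a fit, without covariates, and p-values were adjusted by Benjamini-Hochberg over all genes tested. A log2 difference on this scale understates changes of low genes. The code was tested on simulated data. No 2 libraries were duplicates (highest correlation 0.9895). Replicates are separate mice per the series' design text.

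The named genes are the 8 members, Cyfip1 and Cyfip2, up to 2 genes per list and direction with the largest called, non-overlapping change, and the genes most alike in level. Values of 1 gene that this rule names are not reported here, and the counts of its list include it. Members and lists were chosen with earlier results of these data known. Alternatives changed the pseudocount, the filter, the scaling, the libraries fitted, the weights, the prior and the replicate block, and left out each library. Calls under these alternatives were followed for the members only.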

Additional observations from a re-analysis of the deposited data

Results flagged for a closer look

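Among 128 pairs of a member and a group of 4 libraries, 7 had 1 library farther from the others than Dixon's 95% criterion for the gap over the range allows, where chance alone flags about 1 in 20 groups. For Fmr1 these were replicate 1 of WT cortex at PWK 1 (2543, nearest other 2798) and replicate 2 of KI hippocampus at PWK 7 (1762, nearest 2296). For Fxr2 they were replicate 3 of WT cortex at PWK 14 (3823, nearest 3499.6), replicate 1 of KI cortex at PWK 28 (2875, nearest 3107), which is the library with the most Gfap of its group, and replicate 1 of WT hippocampus at PWK 1 (2305, nearest 2205). Replicate 1 of KI hippocampus at PWK 1 was low for Eif4g1 (13981, nearest 14195), and replicate 1 of KI cortex at PWK 1 was high for Nufip1 (389, nearest 355).

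Effects differed between groups by a test of the difference itself in 4 cases. The KI effect on Eif4ebp2 at PWK 14 minus that at PWK 7 was -0.30 in cortex (limma adjusted p = 0.0199) and -0.39 in hippocampus (limma adjusted p = 0.00189). The WT change from PWK 1 to 7, hippocampus minus cortex, was 0.31 for Nufip1 (limma adjusted p = 0.0387) and 0.24 for Eif4g1 (limma adjusted p = 0.00342).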

How the results depend on the processing

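Over 27 comparisons the members gave 38 calls, and between 30 (replicate block) and 44 (all 64 libraries in 1 fit) under the alternatives. No called member changed direction. The replicate block, which fits the replicate number as a term, gave 3 calls in place of 5 for KI against WT (Eif4ebp2 in cortex at PWK 14 at adjusted p = 0.0667, Fxr2 in hippocampus at 0.0969), 3 in place of 6 for adult ages, 13 in place of 15 for regions (Nufip1 at PWK 7 at 0.0604, Fxr1 at PWK 28 at 0.0529) and 1 in place of 2 for the WT change by region. The labels do not say that equal replicate numbers mark the same mouse. The deviations of cortex and hippocampus with the same number correlated above 0.1 in 17 of 32 pairs (mean 0.14, range -0.0732 to 0.462). Those of KI and WT did so in 10 of 32. Other numbers averaged -0.0461 for the regions, but this is no separate baseline. Deviations from a group mean cancel out within the group, which largely fixes that value. These correlations do not settle whether numbers mark pairs. The WT change by region also gave 1 call under total-sum and under median-ratio scaling, Nufip1 being lost. The KI effect by region gave 1 call in place of 0 with all 64 libraries in 1 fit and with sample quality weights, and the KI effect by age 5 in place of 2 with all 64. Leaving out 1 library at a time gave 4 to 6 calls for KI against WT, 8 to 9 for PWK 1 to 7 (8 in the main analysis), 3 to 7 for adult ages, the 3 without WT hippocampus replicate 1 of PWK 14, 13 to 17 for regions, 0 to 1 for the KI effect by region, 1 to 4 for the KI effect by age, the 1 without KI cortex replicate 3 of PWK 7 and the 4 without KI hippocampus replicate 3 of PWK 14, and 1 to 2 for the WT change by region. Under total-sum scaling the median log2 difference of all genes was between -0.073 and 0.095 over the comparisons, and between -0.009 and 0.013 in the main analysis. Depth is unknown, and Eif4ebp1, at 19.0 to 127 counts, is the member with the least precision.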
